A study of Danio rerio with 6 samples.

Results

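Notch ligands, receptors, processing genes and Hairy family genes were described in zebrafish kidney on 3' expression arrays. Members were chosen by gene symbol, from patterns that cover the notch, Delta, Jagged, her, hes, hey, rbpj, mib, numb, lfng, psen and maml names. The patterns matched 33 of the 8793 genes that a probe set named alone. Of these, 30 belong to the Notch pathway or the Hairy family and 3 match by their letters alone, namely jagn1b, which encodes a Jagunal protein of the endoplasmic reticulum, and mibp and mibp2, genes of muscle integrin binding proteins. No probe set named a rbpj, maml or numb gene alone, so these genes were not analysed here. Where several probe sets named a gene, the one with the highest 6-array mean stood for it.

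All groups came from adult fish of the reporter line Tg(jam1a:EGFP), which marks the ducts with green fluorescence. The ducts were dissected under a fluorescence microscope from fish that had received 25 Gy of X-rays (irradiated ducts) and from fish not described as irradiated (unirradiated ducts). Whole kidney tissue of the same line was the comparison tissue. Each group had 2 arrays, and each array a separate pool of 5 fish. Neither the time after irradiation nor the exact age is given in the sources used here.

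Notch receptors are cell surface proteins that bind Delta or Jagged ligands on a neighbouring cell. Binding leads to cleavage by gamma-secretase, and the freed intracellular domain acts with the DNA-binding protein Rbpj to switch on target genes, among them Hairy family repressors. In the mouse collecting duct, Notch signalling takes part in the choice between principal and intercalated cells, and in zebrafish pronephric tubules it takes part in the choice between transporting and multiciliated cells.

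Levels are log2 RMA values, so a difference of 1 is a 2-fold difference. A level under the array medians, which lay between 5.82 and 5.88, was not shown to be above background. Of the 30 Notch and Hairy members, 11 lay above the median in all 6 arrays and 18 below it in all 6, while mib1 was above in 5. The 3 members matched by letters alone lay above the median in all 6 arrays. Of 11 markers of distal tubule and duct, 5 passed upward in unirradiated ducts over whole kidney and 0 passed downward. Among them were gata3, a transcription factor gene (log2 fold change 2.96 ± 0.26 SE, limma adjusted p = 0.00643), and the ammonia transporter gene rhcgb (3.35 ± 0.35, adjusted p = 0.00992). The list was chosen with earlier results of these data known, so it is no independent check of the tissue label. Muscle markers also passed upward there, as given below. Over the 33 members, the root mean square of the within-group SD was 0.181 in irradiated ducts, 0.164 in unirradiated ducts and 0.270 in whole kidney. The difference between 3' and 5' GAPDH probe sets, a sign of RNA integrity, was 1.13 and 0.97 in irradiated ducts, 1.16 and 2.52 in unirradiated ducts and 0.55 and 0.91 in whole kidney.

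**Figure D1:**
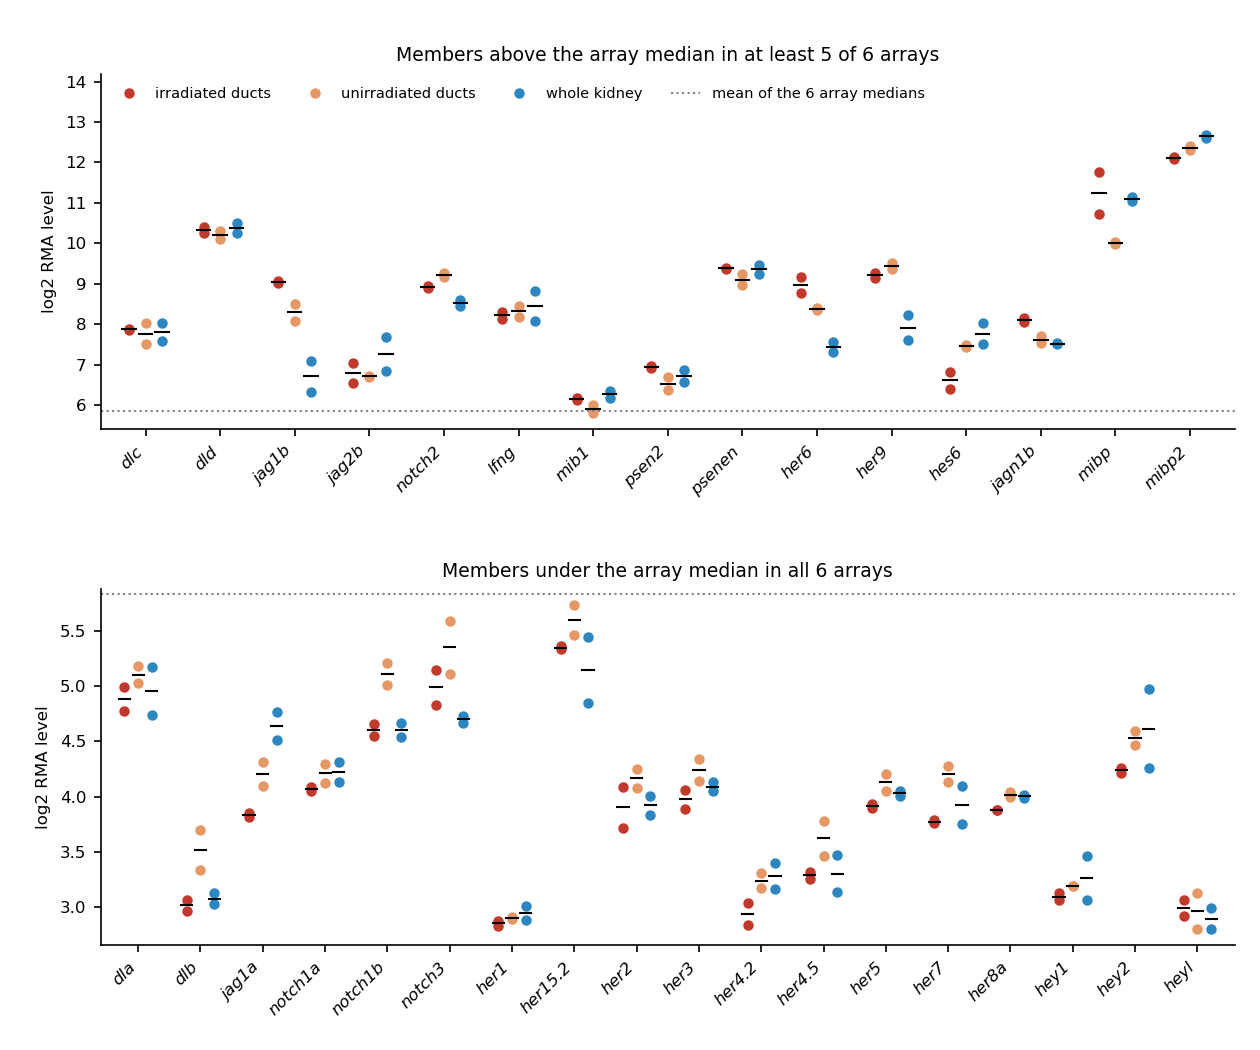
Levels of all 33 members on the log2 RMA scale, with 1 point per array, a bar at the mean of the 2 arrays of a group, and a dotted line at the mean of the 6 array medians. The upper panel holds the members above the median in at least 5 of 6 arrays, where jag1b, her6 and her9 sit higher in all 4 duct arrays than in both kidney arrays, and the lower panel holds the 18 members under the median in all 6 arrays.

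In the deposited values, the dissected collecting ducts read higher than whole kidney for 1 Notch ligand and a pair of Hairy repressors. As given below, these calls depend on single arrays and on the scaling, and smooth muscle markers were also higher in the dissected ducts. The ligand was jag1b, a zebrafish counterpart of Jagged1, and the Hairy genes were her6, the counterpart of Hes1, and her9, a relative of the same subfamily. These 3 of 33 members, or 9.09%, passed the threshold upward in unirradiated ducts against whole kidney, where 4.27% of all 15502 tested probe sets did, and 0 of 33 passed downward, against 2.99% of all. No receptor, no processing gene and no Delta ligand passed, while 8 members (24.2%) had an unadjusted limma p under 0.05, as did 26.9% of all probe sets. The third largest absolute value belonged to mibp, a match by letters alone, at -1.08 ± 0.34 (adjusted p = 0.112). The median log2 fold change was 0.04 over the 30 Notch and Hairy members and 0.01 over all tested probe sets. Adjusted p comes from limma with Benjamini-Hochberg correction over all tested probe sets.

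The level of jag1b was 9.02 and 9.06 in irradiated ducts, 8.50 and 8.08 in unirradiated ducts, and 7.10 and 6.32 in whole kidney. All 4 duct arrays lay above both kidney arrays. Many other members also did not overlap between a duct group and whole kidney, so such separation does not single out jag1b. The share over all probe sets was not counted for the comparisons with whole kidney. A lack of overlap with whole kidney is therefore not read as a result for any member. Unirradiated ducts exceeded whole kidney 2.99-fold (a log2 difference of 1.58 ± 0.30 SE, adjusted p = 0.0377), and irradiated ducts 5.04-fold (2.33 ± 0.30, adjusted p = 0.00981). Its paralogue jag1a stood the other way round, at 3.85 and 3.82 in irradiated ducts, 4.09 and 4.31 in unirradiated ducts, and 4.77 and 4.51 in whole kidney. The jag1a level passed the threshold only in irradiated ducts against whole kidney (-0.81 ± 0.17, adjusted p = 0.042). All 6 jag1a values are among those not shown to be above background. Whether the paralogues differ from each other in their change was not tested.

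The other ligands did not pass in any of the 3 comparisons. The Delta gene dld, a ligand of the somite clock, had the highest readings among them, with 10.41 and 10.26 in irradiated ducts, 10.11 and 10.30 in unirradiated ducts, and 10.25 and 10.51 in whole kidney. The unirradiated arrays overlapped the irradiated and the kidney arrays. The second clock ligand, dlc, read 7.89 and 7.86 in irradiated ducts, 7.50 and 8.02 in unirradiated ducts, and 7.59 and 8.02 in whole kidney, which overlap as well. The probe set used for dlc is one that can match several transcripts, and its other 2 probe sets, at 6.66 to 7.71 and at 2.96 to 3.25, did not pass either. The ligand gene jag2b was at 6.55 and 7.05 in irradiated ducts, 6.72 and 6.70 in unirradiated ducts, and 7.69 and 6.83 in whole kidney, so that its kidney arrays alone spanned more than the distance between the group means. The Delta genes dla and dlb stayed between 2.96 and 5.18, under the array medians.

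Among the receptors, notch2 alone was above the array medians. It read 8.89 and 8.96 in irradiated ducts, 9.25 and 9.16 in unirradiated ducts, and 8.59 and 8.44 in whole kidney, so the 3 groups did not overlap on the probe set used. The difference between unirradiated ducts and whole kidney did not pass the threshold (log2 fold change 0.69 ± 0.15, adjusted p = 0.0552), and with each array centred on its median it did (0.71, adjusted p = 0.0482). The other 2 notch2 probe sets gave log2 fold changes of -0.36 (adjusted p = 0.533) and -0.06 (adjusted p = 0.839) in this comparison, so its probe sets disagree. In irradiated over unirradiated ducts these 2 gave 0.56 and -0.16, against -0.28 for the one used. The first of them read 7.56 and 7.84 in irradiated ducts and 7.54 and 6.75 in unirradiated ducts, the opposite order. The receptors notch1a, notch1b and notch3, the last best known from the muscle cells around vessels, lay between 4.05 and 5.59 and did not pass.

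None of the 4 processing genes passed in any comparison. The fringe glycosyltransferase gene lfng, whose product alters which ligands a receptor answers to, was at 8.14 and 8.30 in irradiated ducts, 8.19 and 8.44 in unirradiated ducts, and 8.81 and 8.07 in whole kidney. Both sets of duct values fell within the range of the kidney arrays. The gamma-secretase subunit genes psenen and psen2 averaged 9.38 ± 0.03 and 6.94 ± 0.04 in irradiated ducts (SD, n = 2), 9.09 ± 0.19 and 6.53 ± 0.23 in unirradiated ducts, and 9.35 ± 0.15 and 6.72 ± 0.21 in whole kidney. The ubiquitin ligase gene mib1, needed for ligand uptake in the signalling cell, averaged 6.15 ± 0.02 in irradiated ducts, 5.90 ± 0.14 in unirradiated ducts and 6.27 ± 0.12 in whole kidney. Unirradiated duct and kidney arrays did not overlap for mib1 or psenen. Irradiated and unirradiated duct arrays did not overlap for mib1, psenen or psen2, with the irradiated ones higher. A second mib1 probe set, under the array medians, had the opposite sign in unirradiated ducts over whole kidney (log2 fold change 0.25, against -0.37 for the one used). It was also opposite in irradiated over unirradiated ducts (-0.26, against 0.25 for the one used). There it read 4.45 and 4.45 in irradiated ducts and 4.63 and 4.81 in unirradiated ducts, so the mib1 probe sets disagree.

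In the Hairy family, 3 of 15 members were above the array medians, and these 3 were the ones that passed in at least 1 comparison. The her9 level was 9.26 and 9.15 in irradiated ducts, 9.38 and 9.51 in unirradiated ducts, and 7.61 and 8.22 in whole kidney. Unirradiated ducts exceeded whole kidney 2.88-fold (log2 fold change 1.53 ± 0.23, adjusted p = 0.0235) and irradiated ducts 2.45-fold (1.29 ± 0.23, adjusted p = 0.0257). For her6 the values were 9.16 and 8.76 in irradiated ducts, 8.36 and 8.41 in unirradiated ducts, and 7.32 and 7.55 in whole kidney. The 3 groups of her6 did not overlap and stood in that order. Its difference from whole kidney was 0.95 ± 0.20 in unirradiated ducts (adjusted p = 0.0467) and 1.53 ± 0.20 in irradiated ducts (adjusted p = 0.0103).

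The third of them, hes6, encodes an atypical family member that in mouse counteracts Hes1. It read 6.40 and 6.82 in irradiated ducts, 7.45 and 7.47 in unirradiated ducts, and 7.50 and 8.04 in whole kidney. Irradiated ducts were 2.23-fold lower than whole kidney (log2 fold change -1.16 ± 0.25, adjusted p = 0.0403), and unirradiated ducts lay just under the lower kidney array and did not pass. The remaining 12 Hairy members, among them the somite clock genes her1 and her7 and the hey1, hey2 and heyl genes known from heart and vessels, lay between 2.80 and 5.73 in all arrays. The her4 probe sets belong to a cluster of near-identical copies, so their assignment to her4.2 and her4.5 is uncertain, and her15.2 is in the same position. In addition, 3 probe sets that name several Hairy genes were left out.

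**Figure D2:**
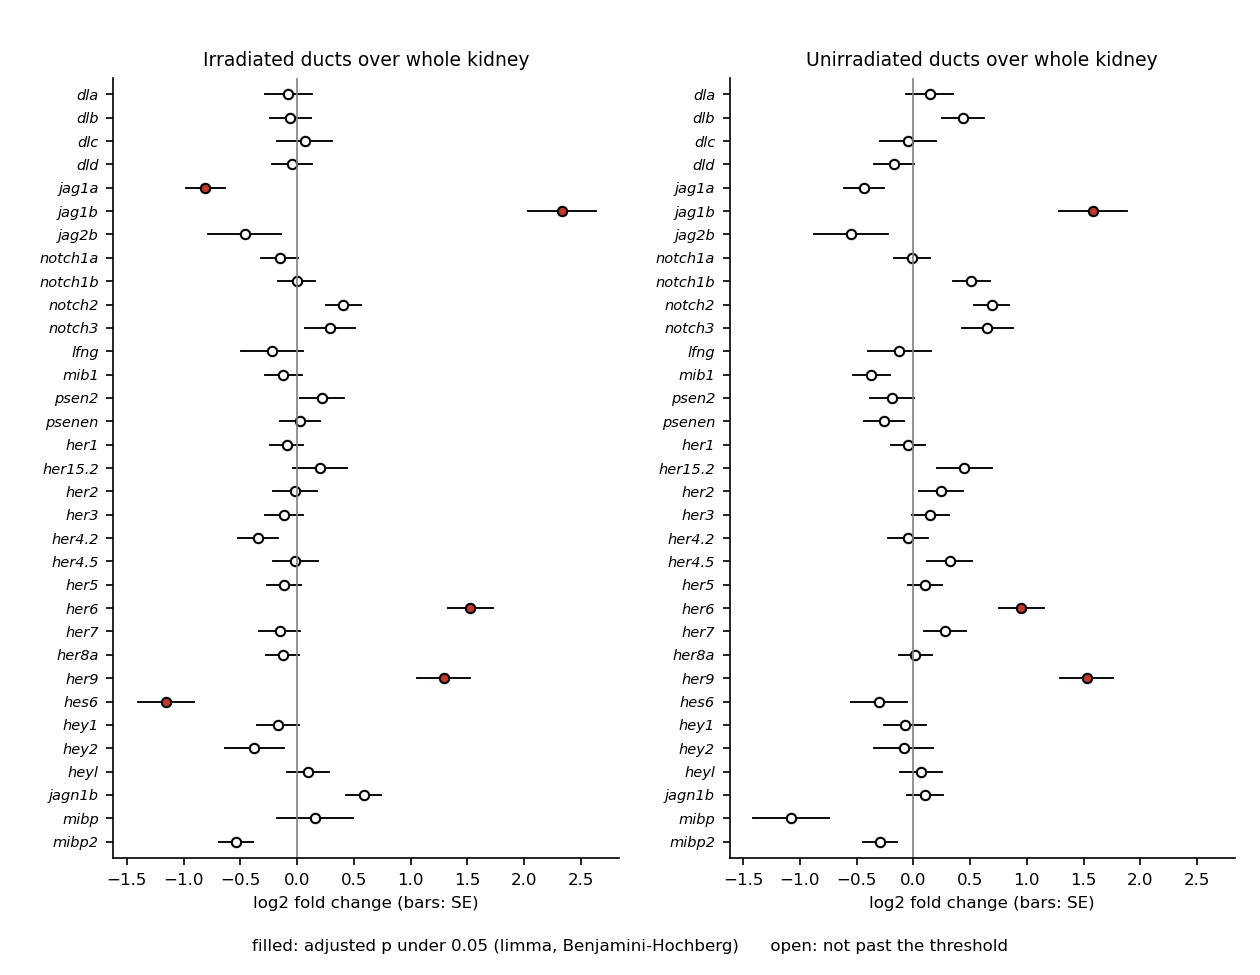
Log2 fold change of the 33 members in irradiated ducts (left) and unirradiated ducts (right) over whole kidney, with bars for the standard error. Filled points passed the threshold, namely jag1b, her6 and her9 upward on both sides, and hes6 and jag1a downward in irradiated ducts. The panels share the kidney arrays.

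Against whole kidney, irradiated ducts gave 5 passing members. Jag1b, her6 and her9 were higher (9.09% of the members, 6.21% of all probe sets), and hes6 and jag1a lower (6.06% of the members, 4.24% of all probe sets). Irradiated ducts and whole kidney differ both in tissue and in the stated irradiation. The parts of tissue and irradiation in these 5 differences therefore cannot be told apart. Both duct groups were set against the same kidney arrays, so their results are not independent of each other.

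These calls rest on few arrays. In unirradiated ducts against whole kidney, 0 members passed without unirradiated duct replicate 1, without unirradiated duct replicate 2, or without either irradiated array, which serve only to estimate the spread, and at an unadjusted limma p under 0.05 the counts were 7, 4 and 7. Without kidney replicate 2, the members jag1b, her9 and her6 had log2 fold changes of 1.19, 1.83 and 1.07. Without kidney replicate 1, these members had 1.97, 1.22 and 0.84. In irradiated ducts against whole kidney, 0 passed without irradiated replicate 1 (5 at an unadjusted p), 1 without irradiated replicate 2 and 2 without either unirradiated array. The sign of each passing member was the same in every such fit. Leaving out an array of the third group gives the same values as fitting the compared groups alone. The counts that follow include this repeated fit each time, so they are not counts of separate checks. The members jag1b, her6, her9, hes6 and jag1a have a single probe set each. Averaging a gene's probe sets therefore left their log2 fold changes as they were, and it is counted too. Over the 13 alternatives other than centring on hybridisation controls, jag1b passed in 11 in irradiated ducts (adjusted p from 0.00284 up to 0.0716) and in 8 in unirradiated ducts (0.00946 up to 0.189). For her6 the counts were 12 in irradiated ducts and 4 in unirradiated ducts, and for her9 they were 8 and 8. Of the lower calls in irradiated ducts, hes6 passed in 7 of 13 (adjusted p up to 0.214) and jag1a in 4 of the 12 that kept it (up to 0.21). Centring on the hybridisation controls, spiked transcripts that differed by 1.53 between these groups, lowered each log2 fold change of unirradiated ducts over whole kidney by that amount, which left jag1b at 0.05 and turned her6 (-0.58) and her9 (-0.0015), so these rises are relative to the median transcript. The control mean was 9.70 and 9.85 in irradiated ducts, 10.86 and 11.37 in unirradiated ducts, and 8.73 and 10.45 in whole kidney, so the kidney arrays differed from each other by more than the groups did. Under this centring the SE was 0.80 for jag1b, her6 and her9. In irradiated ducts against whole kidney the shift was -0.18, no passing member changed sign, and none passed.

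**Figure D3:**
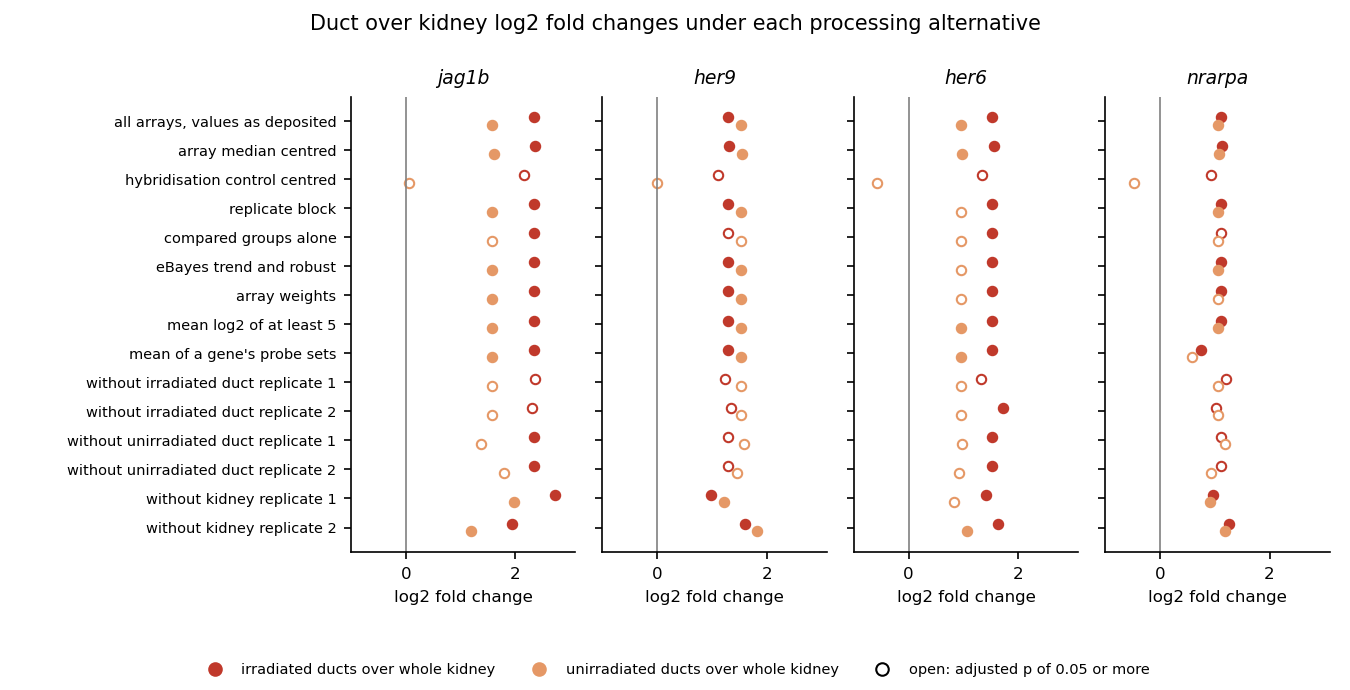
Log2 fold change over whole kidney of jag1b, her9, her6 and the Notch feedback gene nrarpa under each processing alternative, for irradiated ducts (red) and unirradiated ducts (orange). Filled points had an adjusted p under 0.05. Centring on hybridisation controls moves the unirradiated duct values to 0.05 for jag1b, -0.0015 for her9, -0.58 for her6 and -0.48 for nrarpa.

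A list of other pathway genes had 41 of its 75 entries on the array. In unirradiated ducts against whole kidney, 1 of 41 was higher and 0 lower, and in irradiated ducts 2 were higher and 1 lower. Of all probe sets, 4.27% were higher and 2.99% lower in unirradiated ducts, and 6.21% and 4.24% in irradiated ducts. The list therefore passed no more often than probe sets in general. The gene higher in both was nrarpa, which Notch switches on and whose product limits the signal. It read 8.53 and 8.73 in irradiated ducts, 8.44 and 8.70 in unirradiated ducts, and 7.38 and 7.66 in whole kidney. The difference from whole kidney was 1.05 ± 0.19 in unirradiated ducts (adjusted p = 0.0347) and 1.11 ± 0.19 in irradiated ducts (adjusted p = 0.0222), and the sign in unirradiated ducts turned with centring on hybridisation controls (-0.48, adjusted p = 0.577). The 3 other nrarpa probe sets had positive log2 fold changes in both comparisons, of which 1 passed, in irradiated ducts (1.52 ± 0.33, adjusted p = 0.0424). The adaptor gene of endocytosis epn1a was higher in irradiated ducts (0.80 ± 0.18, adjusted p = 0.0435), and id3, an inhibitor of the bHLH factors that Hairy proteins also oppose, was lower (-1.57 ± 0.29, adjusted p = 0.0278). Each of these calls was lost when any one of the 4 duct arrays was left out, with adjusted p up to 0.189 for nrarpa in unirradiated ducts, and up to 0.144 for nrarpa, 0.238 for epn1a and 0.122 for id3 in irradiated ducts. Neither the 2 glycosylation, the 6 cleavage nor the 9 nuclear cofactor genes had a member past the threshold in any comparison.

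Other cell types moved along with these comparisons. Smooth muscle and mural cell markers, cells in which Jagged and Notch genes are known to act, were higher for 5 of 5 in both duct groups. Their mean log2 level was 10.06 and 10.71 in irradiated ducts, 10.70 and 10.64 in unirradiated ducts, and 7.59 and 6.49 in whole kidney, and all 5 exceeded the array medians in every duct array. Endothelial markers were higher for 0 of 9 and lower for 2 of 9 in both duct groups. Their mean levels were 6.72 and 6.73 in irradiated ducts, 6.80 and 6.86 in unirradiated ducts, and 7.38 and 7.24 in whole kidney. Skeletal muscle markers were higher for 5 of 12 in unirradiated ducts and for 4 of 12 in irradiated ducts. They averaged 7.15 and 8.20 in unirradiated ducts, 7.12 and 6.79 in irradiated ducts, and 5.66 and 5.55 in whole kidney. In irradiated ducts against whole kidney, where hes6, jag1a and id3 passed as lower, proliferation genes were lower for 10 of 13, myeloid markers for 7 of 10, erythroid for 4 of 10 and lymphoid for 3 of 5, and p53 targets were higher for 6 of 9. In unirradiated ducts, proliferation genes were lower for 4 of 13, erythroid markers for 5 of 10, myeloid for 3 of 10 and lymphoid for 0 of 5. The mean level of the proliferation genes was 5.69 and 5.80 in irradiated ducts, 6.56 and 6.22 in unirradiated ducts, and 8.21 and 7.42 in whole kidney. For the myeloid markers it was 7.71 and 8.08 in irradiated ducts, 9.03 and 9.07 in unirradiated ducts, and 9.92 and 10.17 in whole kidney. Of 7 multiciliated cell markers, 0 passed in either comparison by limma. The part of these genes and cell types in the Notch and Hairy results was not tested. In such bulk samples, fewer cells of a type and less RNA per cell cannot be told apart.

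After irradiation, no Notch or Hairy gene of the ducts passed the threshold. The count was 0 of 33 in either direction by limma, where 0.0774% of all probe sets passed upward and 0.0903% downward, and 7 of 33 (21.2%) had an unadjusted p under 0.05, as did 14.3% of all probe sets. These 7 were her6, jag1b, jagn1b and mibp with positive and dlb, hes6 and notch1b with negative log2 fold changes. Since jagn1b and mibp match by letters alone, the count among Notch and Hairy members was 5 of 30. Other pathway genes had 0 of 41 past the threshold. With 2 arrays a group the intervals of the differences are wide, and a value that missed the threshold is not shown to be unchanged.

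The jag1b arrays of irradiated ducts lay above both unirradiated ones, with a log2 fold change of 0.75 ± 0.30 SE (95% confidence interval 0.02 to 1.49, adjusted p = 0.344). For her6 the difference was 0.58 ± 0.20 (0.09 to 1.06, adjusted p = 0.307), and again the arrays did not overlap. The her9 difference was -0.24 ± 0.23 (-0.81 to 0.34, adjusted p = 0.687), an interval that holds both signs. For hes6 it was -0.85 ± 0.25 (-1.46 to -0.24, adjusted p = 0.263), with both irradiated arrays under both unirradiated ones. The nrarpa probe set used above overlapped between the duct groups (0.06 ± 0.19, adjusted p = 0.912). Its other probe sets disagreed, since 1 read 6.58 and 7.14 in irradiated ducts and 6.37 and 5.64 in unirradiated ducts, a log2 difference of 0.86 ± 0.33 (adjusted p = 0.334), and another gave -0.32 ± 0.18 (adjusted p = 0.456). Of the members, mibp had the largest absolute value, 1.24 ± 0.34 (adjusted p = 0.244). Its irradiated arrays, at 11.77 and 10.74, differed from each other by more than those of any other member in that group, its unirradiated arrays read 9.99 and 10.04, and whole kidney 11.15 and 11.04.

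**Figure D4:**
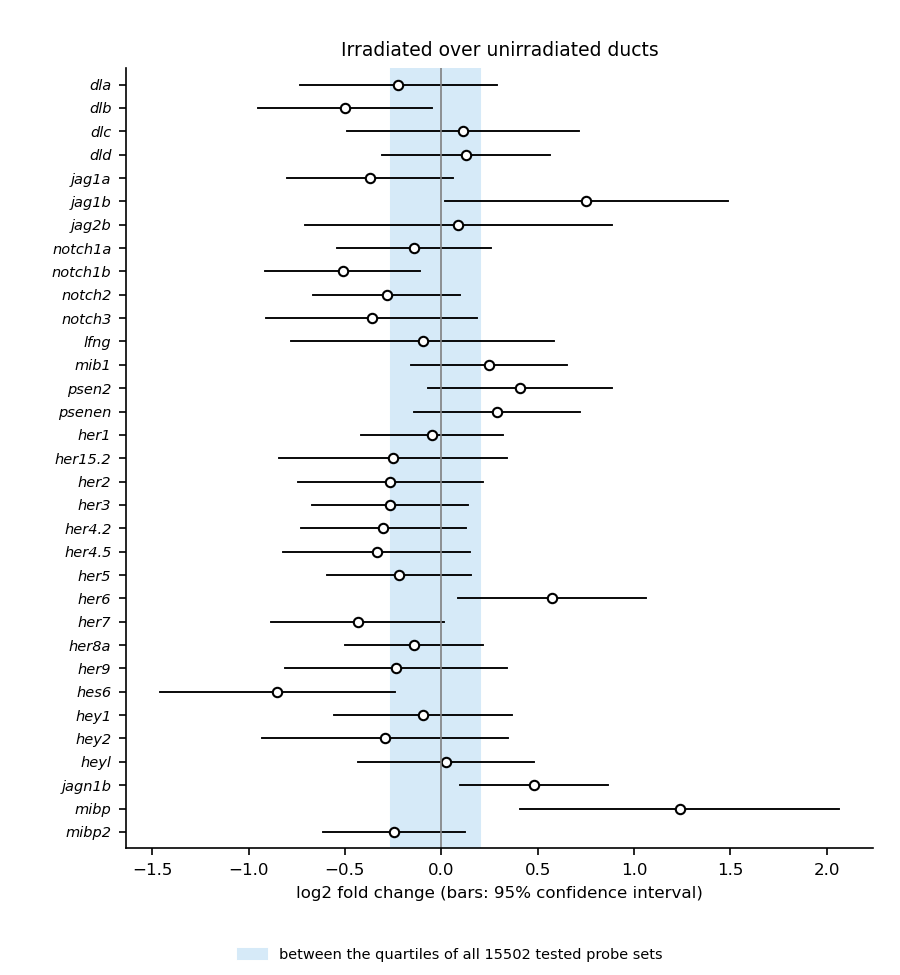
Log2 fold change of the 33 members in irradiated over unirradiated ducts, with 95% confidence intervals. The shaded band runs between the quartiles of all 15502 tested probe sets, -0.26 and 0.20, and no member passed the adjusted threshold.

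Irradiated and unirradiated arrays did not overlap for 7 members upward and 19 downward, or 21.2% and 57.6% of the 33, while 23.8% and 33% of all probe sets did so. These shares do not take level into account, and 18 of the 33 members had a mean under the array median. Only the signs were split by level. Of these 18 Notch and Hairy members, 17 had a negative log2 fold change, with a median of -0.26. Among all 7679 tested probe sets with a mean under the array median 71.1% were negative, with a median of -0.14. Of the 12 members above it, 4 were negative and the median was 0.12, beside 41.3% and 0.08 over all 7823 such probe sets. With hybridisation control centring each log2 fold change of this comparison rose by 1.35, which turned hes6 (0.49) and her9 (1.11) to positive values, and no member passed.

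Some myeloid, lymphoid and p53 target genes passed after irradiation. Myeloid markers were lower for 3 of 10, at the mean levels given above, and lymphoid markers for 1 of 5, with 4.83 and 4.81 in irradiated ducts and 5.80 and 5.76 in unirradiated ducts. Of 9 measured p53 targets 1 was higher, and their mean level was 8.84 and 8.84 in irradiated ducts and 7.37 and 7.07 in unirradiated ducts. Erythroid markers passed for 0 of 10, with mean levels of 9.16 and 8.07 in irradiated ducts and 8.37 and 8.89 in unirradiated ducts, and proliferation genes for 0 of 13, with the levels of both irradiated arrays under those of both unirradiated ones. Smooth muscle and endothelial markers had 0 of 5 and 0 of 9 past the threshold. The part of these genes in the Notch and Hairy values after irradiation was not tested.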

How the data were processed

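Per the submitters' processing notes, the authors made the deposited log2 values with RMA and affy, with no versions given. RMA corrects background, normalises quantiles across arrays and summarises probes, which removes differences in total RNA between arrays. The 6 arrays were grouped by title and the series design. The array holds 15617 probe sets. After removal of 115 controls, limma (version 3.58.1, under R 4.3.3) fitted the other 15502 on all 6 arrays together, estimating a mean for each group, with 3 residual and 2.83 prior degrees of freedom. Two-sided p-values were adjusted over all of these probe sets by Benjamini-Hochberg, with an adjusted p under 0.05 as threshold. Gene symbols are those of the platform annotation, updated where a RefSeq gene table (GRCz12tu, used for names alone) holds a newer one. Log2 fold changes are given for members past the threshold and for the 3 with the largest absolute change in each comparison. They are also given for notch2, for mib1, whose probe sets differed in sign, and, after irradiation, for her6 and her9. These additions were chosen after their values were seen. Of a list, members past the threshold are named. Members, lists and tests were chosen with earlier results of these data known. Simulated data served as a test of the code. The number of arrays limits precision. Alternatives were 2 scalings, the replicate number as a block, only the groups compared, array weights, trended robust eBayes, a mean log2 filter of 5, the mean of a gene's probe sets, and leaving out each of the 6 arrays. Correlations of same-numbered deviations were -0.10, -0.10 and 0.06, so the numbers were not taken as pairs. No sequences were used.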

Additional observations from a re-analysis of the deposited data

How the results depend on the processing

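In unirradiated ducts against whole kidney, 3 members and 1126 probe sets passed. With hybridisation control centring the counts were 1 and 2155 (41 higher, 2114 lower, against 662 and 464), and on the compared groups alone 0 (7 at an unadjusted limma p under 0.05) and 422. The member that passed with hybridisation control centring was mibp, which was lower. Array weights gave 615 probe sets. Leaving out 1 array gave 0 to 5 members and 0 to 3373 probe sets (2777 and 2536 at an unadjusted limma p under 0.05 where 0 passed). In irradiated against unirradiated ducts, 0 members passed by limma under every alternative (1 to 10 at an unadjusted p), and 26 probe sets passed. The probe set count was 150 with hybridisation control centring, 217 on the compared groups alone, 243 with array weights, and 0 to 217 leaving out 1 array. In irradiated ducts against whole kidney, 5 members and 1620 probe sets passed. The counts were 0 (1 at an unadjusted p) and 225 with hybridisation control centring, and 2 and 783 on the compared groups alone. Array weights gave 3 members. Leaving out 1 array gave 0 to 6 members and 308 to 3183 probe sets.

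With the replicate number as a block, 2, 0 and 4 members passed in these 3 comparisons, and 0 probe sets (1906 at an unadjusted p) in irradiated against unirradiated ducts. The block ended the calls of her6 in unirradiated ducts (adjusted p = 0.0794) and of jag1a (0.0783), epn1a (0.0779) and id3 (0.0501) in irradiated ducts.

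Signs turned only with hybridisation control centring. They turned for her6 (-0.58), her9 (-0.0015), nrarpa (-0.48) and notch2 (-0.84) in unirradiated ducts against whole kidney, and for her9 (1.11) and hes6 (0.49) after irradiation. Each of these 6 values had an SE of 0.80, and none passed the threshold. Counts without jagn1b, mibp and mibp2, an alternative chosen after seeing the data, were the same. The causes were not tested. Over 19 log2 fold changes and their alternatives, 178 values kept sign and side of the threshold, 78 lost and 3 gained the call, and 6 turned. Fits that leave out an array of the third group repeat the fit on the compared groups alone, and each is counted here.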
